A study of Homo sapiens with 30 samples.

Results

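The cluster at chromosome 19p12 is a run of zinc finger genes that expanded during primate evolution. Its members were taken from a list of 34 symbols, matched by name in the first column of each count file and by no measured value. The list itself was chosen with earlier results of these data known. Of the 24462 symbols counted in the files, 33 were members, and the remaining listed symbol, ZNF66, was not analysed here. The annotation used here places all 33 on chromosome 19, from ZNF506 at the start of the run to ZNF254 at its end. It types 32 of them as protein-coding genes and ZNF826P as a transcribed pseudogene. A C2H2 finger pattern, searched in the best reading frame of each member's annotated transcripts, matched 33 times in ZNF91, 36 times in ZNF208 and 0 times in ZNF738, with a median of 13 over the 33 members.

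Proteins of this family join an array of C2H2 zinc fingers, which reads DNA, to a KRAB domain. The KRAB domain binds TRIM28 (KAP1), which brings in the histone methyltransferase SETDB1, and SETDB1 places the silencing mark H3K9me3. Some members are known repressors of mobile elements: ZNF91 silences SVA retrotransposons and ZNF93 silences LINE-1 elements of the L1PA families. Zinc finger genes of chromosome 19 are themselves known carriers of H3K9me3 over their 3′ ends, where the zinc finger protein ZNF274 recruits TRIM28 and SETDB1.

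RNA was counted by QuantSeq, which reads about 1 tag from the 3′ end of each transcript, in 30 libraries made from the colorectal cancer lines Caco2, SW480 and HCT116 of human origin, each of the 10 groups holding 3. The 4 Caco2 groups were KRT20-positive and KRT20-negative cells carrying a SETDB1 hairpin, cells with a scramble hairpin in differentiation medium, and cells with a scramble hairpin in vehicle. KRT20 is a keratin of differentiated intestinal epithelium. Differentiation medium held 10 uM troglitazone, which activates PPARG, and 25 nM 1α,25-dihydroxyvitamin D3, which activates VDR, both added 3 days after retroviral transduction, and the transduced cells were selected with puromycin. In HCT116 and in SW480 the 3 groups were KRT-positive cells with a SETDB1 hairpin, KRT-negative cells with a SETDB1 hairpin, and unsorted cells, whose hairpin the labels do not give. The labels likewise do not give the medium of the SETDB1-hairpin cells or of the unsorted cells, so hairpin, sorting and medium cannot be told apart in a comparison with the controls. Nothing states that the 3 libraries of a group came from separate cultures, so p-values measure only the spread between these samples. In such pooled libraries, fewer cells expressing a gene and less RNA per cell cannot be told apart.

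Libraries held 5349737 to 10221854 counts, so that 3 counts, the limit that a count of 0 allows, correspond to 0.293 to 0.561 CPM (counts scaled to a common library total), for counting error only. SETDB1 itself averaged 23.0 ± 3.17 CPM in Caco2 KRT20-positive cells, 21.4 ± 2.17 CPM in KRT20-negative cells and 30.7 ± 1.71 CPM in scramble vehicle cells (SD, n = 3 each). Both fractions were lower by edgeR's quasi-likelihood test, with log2 fold changes of -0.42 (adjusted p = 0.0119, and 0.081 without KRT20-positive replicate 1) and -0.52 (adjusted p = 0.00231). SETDB1 averaged 17.8 ± 14.7 CPM in KRT-positive and 2.90 ± 2.87 CPM in KRT-negative cells against 53.4 ± 31.7 CPM in unsorted cells of HCT116. In SW480 it averaged 4.02 ± 6.96, 13.2 ± 19.9 and 28.9 ± 12 CPM in the same order (SD, n = 3 each). Against unsorted cells edgeR called it lower in HCT116 KRT-negative cells (adjusted p = 0.0424, but 0.0622 in a fit of the 2 groups alone). That call was also lost with no count filter (edgeR adjusted p = 0.19) and with a GC covariate (0.0887). The same held without KRT-negative replicate 3 (0.161) or unsorted replicate 1 (0.136) or 2 (0.119). SETDB1 was not called in HCT116 KRT-positive cells (edgeR adjusted p = 0.407). Nor was it called in SW480 KRT-positive (0.523, and 0.0496 without KRT-positive replicate 3) or KRT-negative cells (0.938). KRT20 averaged 32.9 CPM in Caco2 KRT20-positive and 57.7 CPM in SW480 KRT-positive cells, against 1.30 CPM in KRT20-negative and 0.222 CPM in KRT-negative cells, but 1.95 CPM in KRT-positive and 0 CPM in KRT-negative cells of HCT116. Spread differed between lines: the biological coefficient of variation was 0.102 in Caco2, 0.781 in HCT116 and 0.935 in SW480. The Caco2 library KRT20-negative replicate 3 stood apart, and results that rest on it are given with and without it.

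RefSeq promoter sequences (GRCh38.p14, 250 bases before to 50 after each start site) existed for 24 of the 33 members, and 7 are shown, to set the promoters of members that rose, fell or were near 0 in Caco2 beside each other. Each line gives 95 bases before to 10 bases after the start, 5′ to 3′ on the gene's strand, with 2 motifs in capitals, TCCAATCAG and CTTCCGG.
ZNF91: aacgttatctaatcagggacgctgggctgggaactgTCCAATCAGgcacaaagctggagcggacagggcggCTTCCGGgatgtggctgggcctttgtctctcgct
ZNF737: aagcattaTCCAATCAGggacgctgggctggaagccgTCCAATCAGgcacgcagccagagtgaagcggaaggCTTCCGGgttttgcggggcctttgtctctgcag
ZNF254: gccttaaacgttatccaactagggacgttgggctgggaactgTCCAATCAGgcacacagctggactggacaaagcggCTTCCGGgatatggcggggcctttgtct
ZNF682: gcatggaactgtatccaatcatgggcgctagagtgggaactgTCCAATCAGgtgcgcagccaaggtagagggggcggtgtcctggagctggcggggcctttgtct
ZNF714: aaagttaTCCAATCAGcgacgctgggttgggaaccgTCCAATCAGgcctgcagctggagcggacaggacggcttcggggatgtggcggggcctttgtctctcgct
ZNF708: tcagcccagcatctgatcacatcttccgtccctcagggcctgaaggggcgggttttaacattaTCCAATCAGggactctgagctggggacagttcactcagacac
ZNF43: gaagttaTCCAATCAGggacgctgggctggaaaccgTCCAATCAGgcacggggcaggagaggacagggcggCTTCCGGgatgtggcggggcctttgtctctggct

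The windows lie at chr19:23395462-23395566 (minus strand, ZNF91), chr19:20565772-20565876 (minus, ZNF737), chr19:24087092-24087196 (plus, ZNF254), chr19:20039496-20039600 (minus, ZNF682), chr19:21082108-21082212 (plus, ZNF714), chr19:21329401-21329505 (minus, ZNF708) and chr19:21836173-21836277 (minus, ZNF43). TCCAATCAG, which holds the CCAAT letters known as the binding core of NF-Y, was found in 24 of 24 member promoters on the gene's own strand. Searched on both strands, it was present in 13.7% of 182 promoters of other ZNF genes on chromosome 19, in 7.29% of 192 promoters of ZNF genes on other chromosomes and in 0.849% of all 35116 promoters of that length. These letters were picked by reading the member promoters, so the shares are a description. There were 12 members with 1 copy and 12 with 2 copies, and the copies began 29 bases apart in 10 of the 12 pairs and 28 bases apart in the other two.

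CTTCCGG, an ETS-type core, was present in 18 of the 24 member promoters (75%), against 39.6% of other chromosome 19 ZNF promoters, 37.5% of those on other chromosomes and 10.3% of all promoters. It began 35 bases after the nearest TCCAATCAG in 16 of the 18 and 64 bases after it in the other two. The GC box GGGCGG was present in 75% of member promoters, 68.7% of other chromosome 19 ZNF promoters, 60.4% of those on other chromosomes and 45% of all promoters. TATAAA was present in 3 of the 24 (12.5%), against 0.549%, 4.69% and 11.5% in the same sets, and CACGTG in 0 of the 24, against 4.40%, 6.25% and 7.26%. ZNF43, ZNF208, ZNF492 and ZNF730, whose transcripts were at or near 0 in Caco2, held the same TCCAATCAG letters as ZNF91 and ZNF737.

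In Caco2, 16 of the 33 members had enough counts to be tested, and they are listed here in chromosome order: ZNF506, ZNF253, ZNF682, ZNF90, ZNF737, ZNF430, ZNF714, ZNF431, ZNF708, ZNF738, ZNF493, ZNF100, ZNF91, ZNF675, ZNF681 and ZNF254. Of these, 12 would have passed the count filter on the vehicle libraries alone, whereas ZNF506, ZNF253, ZNF90 and ZNF681 passed through groups in which they were higher. QuantSeq yields about 1 tag per transcript, so levels of different genes are compared without division by length. In scramble vehicle cells the highest member was ZNF708, at 28.4 ± 3.79 CPM, followed by ZNF430 at 16.5 ± 1.86, ZNF714 at 13.9 ± 1.55 and ZNF91 at 7.23 ± 0.313 CPM (SD, n = 3). The libraries of ZNF430 and ZNF714 overlapped there, and each of the other tested members averaged under 5 CPM.

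The 17 untested members had few or no tags, with 14 of them never above 1 CPM in a Caco2 library. The highest single value was 1.87 CPM, for ZNF93 in KRT20-negative replicate 2. ZNF93 had 73 counts over all 12 Caco2 libraries, ZNF43 had 28, ZNF208 had 7 and ZNF85 had 4, so no difference between groups could be tested for these. Untested members lay together: 10 neighbouring members, from ZNF43 through ZNF730 and between ZNF100 and ZNF91, were all untested, and none of the 10 exceeded 0.685 CPM in a Caco2 library. Before that stretch 12 of 18 members were tested, and after it 4 of 5.

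**Figure D1:**
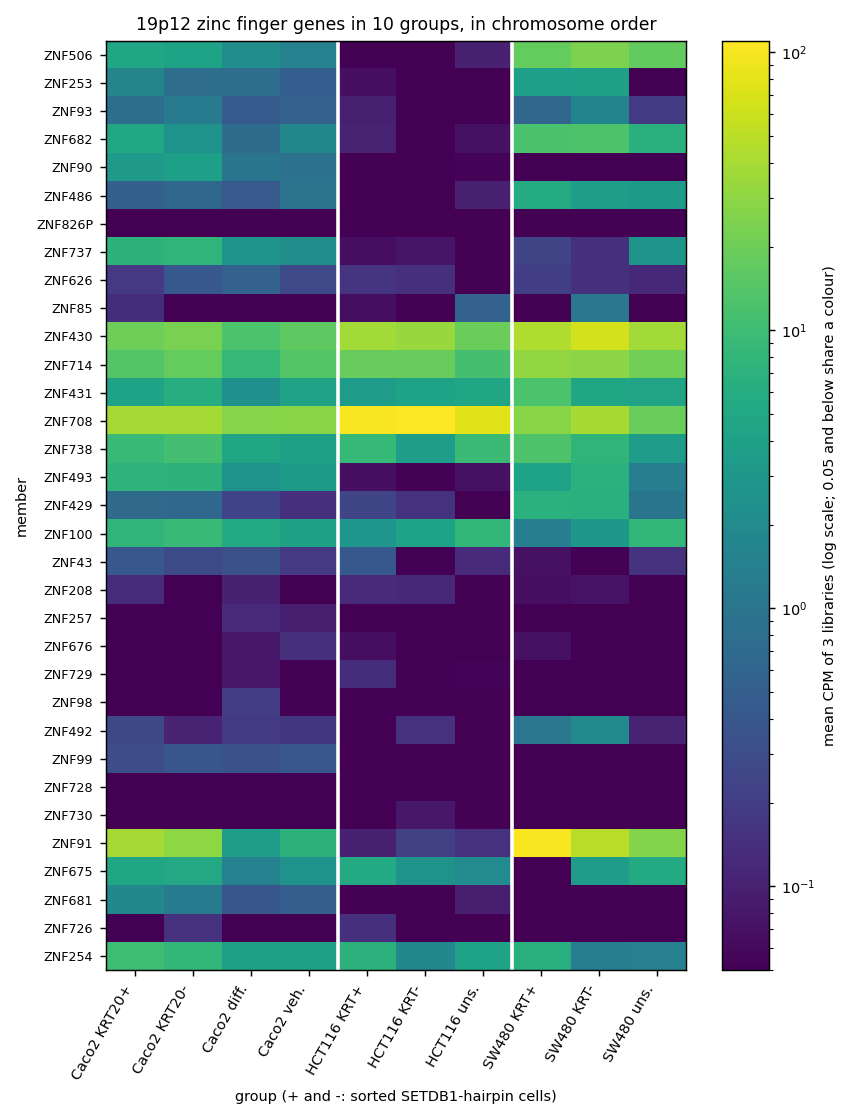
Mean level of each of the 33 members (rows, in chromosome order) in each of the 10 groups (columns), with colour giving CPM on a log scale. The block of rows from ZNF43 to ZNF730 is near 0 in the Caco2 groups, with ZNF492 at 1.94 CPM in SW480 KRT-negative cells, while ZNF91 is bright in the SETDB1-hairpin groups of Caco2 and in SW480 and near 0 in HCT116.

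In KRT20-negative SETDB1-hairpin Caco2 cells, compared with scramble vehicle cells, most of the cluster's tested members were higher and none was called lower. By edgeR's quasi-likelihood test at a 5% false discovery rate, 11 of the 16 tested members rose and 0 fell, where 18.6% of all 13968 tested genes rose and 17.6% fell. Among the 12 members that would have passed on vehicle libraries alone, 9 rose. The median log2 fold change of the 16 was 1.09, against 0.01 for all tested genes. In 10 members all 3 KRT20-negative libraries lay above all 3 vehicle libraries, an order seen for 23.0% of tested genes. This median and count were taken over all 16, including ZNF506, ZNF253, ZNF90 and ZNF681, which passed the filter through groups in which they were higher. They therefore lean upward and were not taken over the 12 alone.

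ZNF91, the SVA repressor, had 29, 26.2 and 33.5 CPM in KRT20-negative libraries, against 7.25, 7.53 and 6.91 CPM in vehicle libraries. The groups were far apart relative to their spread, and the mean was 4.09 times that of vehicle (log2 fold change 2.03, SE 0.16, edgeR adjusted p = 3.65e-10). ZNF90 had 5.48, 2.93 and 3.04 CPM in KRT20-negative libraries against 1.23, 1.08 and 0.46 CPM in vehicle libraries (log2 2.00, SE 0.48, edgeR adjusted p = 0.002). ZNF737 had 7.30, 8.43 and 7.09 CPM in KRT20-negative libraries against 2.21, 2.29 and 2.46 CPM in vehicle libraries (log2 1.71, SE 0.25, edgeR adjusted p = 8.46e-06). These last genes are KRAB zinc finger genes for which no target is named here, and in both all 3 KRT20-negative libraries exceeded all 3 vehicle libraries.

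ZNF738 had 10.5, 13.6 and 8.71 CPM in KRT20-negative libraries against 3.93, 4.17 and 3.68 CPM in vehicle libraries (log2 1.47, edgeR adjusted p = 1.82e-05), and ZNF506 had 4.90, 4.69 and 3.24 CPM against 2.09, 1.61 and 0.767 CPM (log2 1.48, edgeR adjusted p = 0.00247). ZNF254, at the far end of the cluster, had 8.21, 9.72 and 6.78 CPM in KRT20-negative libraries against 2.95, 5.38 and 3.53 CPM in vehicle libraries (log2 1.06, edgeR adjusted p = 0.00146). ZNF100 had 10.2, 11.5 and 5.47 CPM against 4.18, 4.98 and 3.07 CPM in the same order (log2 1.13, edgeR adjusted p = 0.00172). In each of these 4 genes the lowest KRT20-negative library was above the highest vehicle library.

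ZNF493 rested on a single library. It had 4.79, 4.33 and 12.8 CPM in KRT20-negative libraries against 2.33, 3.77 and 3.99 CPM in vehicle libraries, and its log2 fold change of 1.14 (edgeR adjusted p = 0.0162) became 0.45 (adjusted p = 0.258) without KRT20-negative replicate 3. It also missed the threshold without vehicle replicate 1, at 0.92 (edgeR adjusted p = 0.089), with a GC covariate and in a fit of the 2 groups alone.

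The remaining called members, named after their values were seen, were ZNF675 (log2 1.02), whose protein is known as an inhibitor of TRAF6 signalling, ZNF430 (0.51) and ZNF708 (0.46), the last with libraries that overlapped those of vehicle. The call on ZNF708 was lost without KRT20-negative replicate 1 or 2 or vehicle replicate 2 or 3, at edgeR adjusted p from 0.0721 to 0.088, and that on ZNF675 without vehicle replicate 2, at 0.0644. The members that did not pass were ZNF714 (log2 0.36, edgeR adjusted p = 0.0952, and 0.50 with 0.0261 without KRT20-negative replicate 1), ZNF431 (0.49, 0.237), ZNF682 (0.51, 0.319), ZNF253 (0.62, 0.514) and ZNF681 (1.12, 0.162).

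In KRT20-positive SETDB1-hairpin cells the same direction was found against vehicle. By edgeR's test, 13 of the 16 tested members rose and 0 fell, where 19.3% of all tested genes rose and 18.4% fell, and 9 of the 12 that pass on vehicle alone were among them. The median log2 fold change was 1.28, against 0.01 for all tested genes. All 3 KRT20-positive libraries lay above all 3 vehicle libraries in 14 members, an order seen for 26.0% of tested genes. The median and this count again include ZNF506, ZNF253, ZNF90 and ZNF681, which passed the filter through groups in which they were higher. This comparison uses the same vehicle libraries as the preceding one.

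ZNF91 had 38.9, 36.8 and 40.6 CPM in KRT20-positive libraries against 7.25, 7.53 and 6.91 CPM in vehicle libraries, a mean 5.36 times as high (log2 2.42, SE 0.16, edgeR adjusted p = 1.09e-11). It was the most changed member and, at 38.8 ± 1.94 CPM, stood level with ZNF708 at 38.9 ± 1.97 CPM (SD, n = 3 each) as the most abundant members of these cells, whereas in vehicle cells ZNF91 averaged 7.23 CPM and ZNF708 28.4 CPM. ZNF682 had 5.35, 5.04 and 4.98 CPM in KRT20-positive libraries against 1.47, 2.29 and 1.53 CPM in vehicle libraries (log2 1.53, SE 0.37, edgeR adjusted p = 0.00184). Its 3 KRT20-positive libraries were nearly equal and all above vehicle.

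ZNF737 had 6.58, 6.24 and 9.04 CPM in KRT20-positive libraries against 2.21, 2.29 and 2.46 CPM in vehicle libraries (log2 1.65, edgeR adjusted p = 1.45e-05). ZNF254 had 11.2, 8.49 and 10.5 CPM against 2.95, 5.38 and 3.53 CPM in the same order (log2 1.35, edgeR adjusted p = 0.000103). ZNF506 had 6.58, 4.51 and 3.28 CPM against 2.09, 1.61 and 0.767 CPM (log2 1.64, edgeR adjusted p = 0.000899). Their KRT20-positive libraries did not overlap the vehicle libraries.

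Several members with large fold changes had few tags. ZNF90 had 3.15, 2.39 and 3.93 CPM in KRT20-positive libraries against 1.23, 1.08 and 0.46 CPM in vehicle libraries (log2 1.73, edgeR adjusted p = 0.00737). ZNF681 had 1.23, 1.99 and 2.23 CPM against 0.982, 0.269 and 0.307 CPM (log2 1.73, edgeR adjusted p = 0.0238), and ZNF253 had 2.47, 1.33 and 1.18 CPM against 0.614, 0.134 and 0.767 CPM (log2 1.70, edgeR adjusted p = 0.0367). The call on ZNF253 did not hold in DESeq2 (adjusted p = 0.0543) or without KRT20-positive replicate 1 or 2 or vehicle replicate 1 or 2 (edgeR adjusted p 0.0506 to 0.186), and that on ZNF681 did not hold without KRT20-positive replicate 2 or 3 or vehicle replicate 2 or 3 (edgeR adjusted p 0.0673 to 0.104).

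The other 5 called members, named after their values were seen, were ZNF738 (log2 1.21), ZNF493 (1.16), ZNF100 (0.92), ZNF675 (0.90) and ZNF708 (0.45). Leaving out a library ended the call on 4 of these. ZNF493 was lost without KRT20-positive replicate 3 (edgeR adjusted p = 0.0525) or vehicle replicate 1 (0.0825), ZNF100 without vehicle replicate 3 (0.0532), ZNF675 without KRT20-positive replicate 3 (0.0976) or vehicle replicate 2 (0.12), and ZNF708 without KRT20-positive replicate 1 or 3 or vehicle replicate 2 or 3 (0.0571 to 0.0953). The members that did not pass were ZNF430 (log2 0.30, edgeR adjusted p = 0.106), ZNF714 (0.03, 0.901) and ZNF431 (0.01, 0.984).

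**Figure D2:**
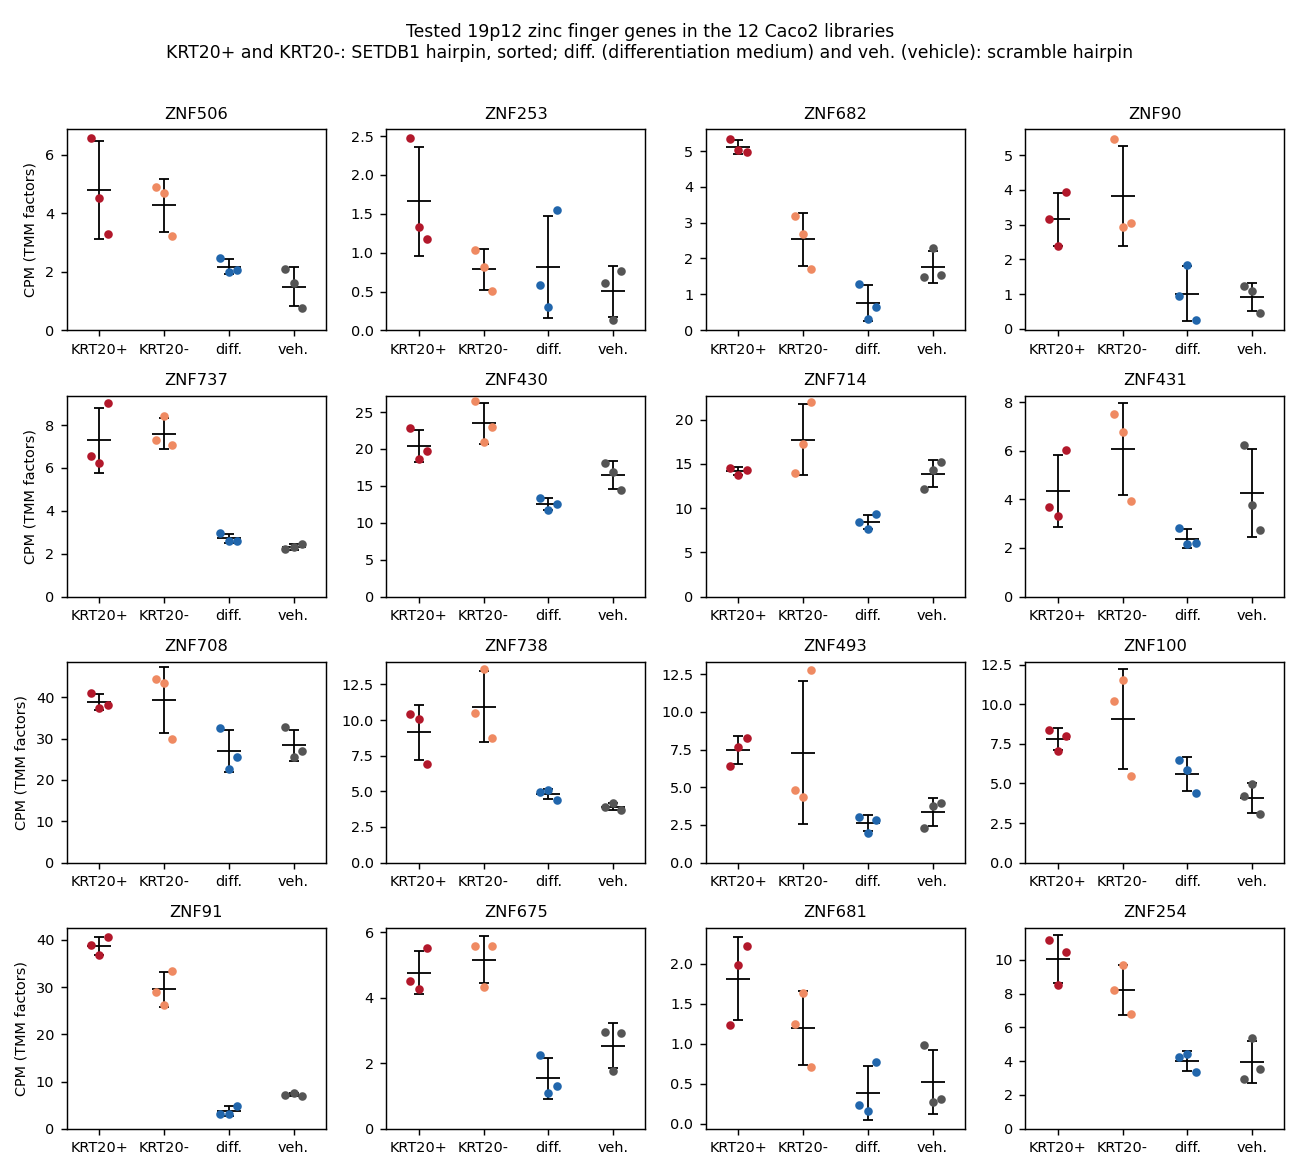
CPM of the 16 tested members in the 12 Caco2 libraries, with KRT20-positive, KRT20-negative, differentiation medium and vehicle groups from left to right, 1 dot per library, the bar at the mean and error bars showing SD (n = 3). In ZNF91 the KRT20-positive libraries sit between 36.8 and 40.6 CPM and the vehicle libraries between 6.91 and 7.53 CPM.

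Summed over the 33 members, the cluster gave 183 ± 10.2 CPM in KRT20-positive cells, 181 ± 7.82 in KRT20-negative cells, 83.6 ± 7.70 in scramble cells in differentiation medium and 98.7 ± 5.28 CPM in vehicle cells (SD, n = 3 each). ZNF91 supplied 20.3% to 21.8% of these tags in KRT20-positive libraries, 14.3% to 19.4% in KRT20-negative libraries, 3.46% to 5.98% in differentiation medium and 6.99% to 7.58% in vehicle. The sum stood apart between the hairpin fractions and both scramble groups, with 172 to 192 CPM in KRT20-positive libraries, 172 to 188 in KRT20-negative libraries, 77.0 to 92.1 in differentiation medium and 93.2 to 104 CPM in vehicle.

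KRT20-positive hairpin cells were then set against KRT20-negative hairpin cells. By edgeR's test 0 of the 16 tested members were called between the fractions, where 4.08% of all tested genes were, so the members' count is near the background. DESeq2 likewise called 0, and 2 members had an unadjusted p under 0.05. These were ZNF91, at 38.8 ± 1.94 CPM in KRT20-positive against 29.6 ± 3.68 CPM in KRT20-negative cells (log2 0.39, 95% interval 0.12 to 0.66, edgeR adjusted p = 0.111), and ZNF682, at 5.12 ± 0.197 against 2.54 ± 0.749 CPM (log2 1.02, 95% interval 0.31 to 1.72, edgeR adjusted p = 0.104). ZNF91, ZNF682 and ZNF253 had every KRT20-positive library above every KRT20-negative library, an order seen for 10.0% of tested genes. Without KRT20-negative replicate 3, ZNF91 was called, at a log2 fold change of 0.49 (edgeR adjusted p = 0.0361). For the other 14 members, fitted log2 differences ran between -0.48 (ZNF431) and 1.07 (ZNF253, 95% interval -0.09 to 2.23).

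The members called against vehicle were partly shared. In both fractions 10 members rose, namely ZNF506, ZNF90, ZNF737, ZNF708, ZNF738, ZNF493, ZNF100, ZNF91, ZNF675 and ZNF254, with ZNF430 past the threshold in KRT20-negative cells alone and ZNF253, ZNF681 and ZNF682 in KRT20-positive cells alone. The direct comparison above called none of these 4, and both counts use the same vehicle libraries.

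Differentiation medium in scramble cells was followed by the opposite direction in a pair of members. Against vehicle, edgeR's test found 0 members higher and 2 lower, where 10.4% of all tested genes were higher and 10.5% lower, so the members' share is near the background. ZNF91 had 3.18, 3.23 and 4.90 CPM in differentiation medium against 7.25, 7.53 and 6.91 CPM in vehicle (log2 -0.93, SE 0.20, edgeR adjusted p = 0.00156). ZNF714 had 8.37, 7.68 and 9.29 CPM in differentiation medium against 12.2, 14.3 and 15.2 CPM in vehicle (log2 -0.71, SE 0.18, edgeR adjusted p = 0.00694). In both, the groups did not overlap.

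ZNF430 and ZNF682 also had all 3 differentiation-medium libraries below all 3 vehicle libraries, and ZNF737 and ZNF738 had theirs above. That makes 6 of 16 members without overlap in either direction, where 39.1% of tested genes had none. ZNF430, with 13.3, 11.7 and 12.6 CPM in differentiation medium against 18.1, 16.9 and 14.4 CPM in vehicle, had a log2 fold change of -0.39 (edgeR adjusted p = 0.0687), which passed the threshold with replicate number as a block (adjusted p = 0.0466) and with library totals as the scaling (0.0429). ZNF682 was at -1.16 (edgeR adjusted p = 0.0801), and passed without differentiation-medium replicate 1, at -1.82 (0.0254).

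The hairpin fractions were also set against scramble cells in differentiation medium. By edgeR's test, 13 of 16 rose and 0 fell in KRT20-positive cells, where 18.0% of tested genes rose and 16.6% fell. In KRT20-negative cells 14 of 16 rose and 0 fell, where 19.6% of tested genes rose and 18.4% fell. The 16 again include ZNF506, ZNF253, ZNF90 and ZNF681, and of the 12 members that would have passed on vehicle libraries alone 10 rose in KRT20-positive and 12 in KRT20-negative cells. That subset rests on vehicle libraries, not on differentiation medium, the control here. The filter's level was 1.28 CPM, and ZNF682 (1.30, 0.307 and 0.645 CPM) and ZNF675 (2.24, 1.08 and 1.29 CPM) had differentiation-medium libraries under it. ZNF506 (2.48, 2.00 and 2.06 CPM) did not. The counts over the 12 can therefore still lean upward. ZNF91 averaged 38.8 ± 1.94 CPM in KRT20-positive cells and 29.6 ± 3.68 CPM in KRT20-negative cells, against 3.77 ± 0.98 CPM in differentiation medium, 10.3 and 7.85 times as high (log2 3.35 and 2.97, edgeR adjusted p = 2.15e-13 and 2.33e-12). ZNF682 averaged 5.12 CPM in KRT20-positive and 2.54 CPM in KRT20-negative cells against 0.75 CPM in differentiation medium (log2 2.69 and 1.67, edgeR adjusted p = 1.78e-05 and 0.00386).

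ZNF714 and ZNF430, which did not pass between the KRT20-positive fraction and vehicle, passed here. ZNF714 had 14.5, 13.7 and 14.3 CPM in KRT20-positive libraries and 14, 17.2 and 22.0 CPM in KRT20-negative libraries against 8.37, 7.68 and 9.29 CPM in differentiation medium (log2 0.74 and 1.07, edgeR adjusted p = 0.00259 and 3.95e-05). ZNF430 had 22.9, 18.7 and 19.7 CPM and 26.5, 21.0 and 23.0 CPM in those fractions against 13.3, 11.7 and 12.6 CPM (log2 0.70 and 0.90, edgeR adjusted p = 0.000755 and 3.33e-05). Members that did not pass were ZNF253, ZNF431 and ZNF100 in KRT20-positive cells and ZNF253 and ZNF681 in KRT20-negative cells. ZNF431 passed without KRT20-positive replicate 2 (edgeR adjusted p = 0.0494), and ZNF681 without KRT20-negative replicate 3 (0.0343) or differentiation-medium replicate 3 (0.0264).

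Some calls against differentiation medium rested on single libraries. In KRT20-positive cells ZNF506 was lost without KRT20-positive replicate 1 (edgeR adjusted p = 0.113), ZNF90 without KRT20-positive replicate 3 (0.0518) or differentiation-medium replicate 3 (0.0638), ZNF708 without differentiation-medium replicate 2 (0.0604) and ZNF681 without differentiation-medium replicate 1 (0.0528). In KRT20-negative cells ZNF506 was lost without KRT20-negative replicate 1 or 2 or any differentiation-medium replicate (edgeR adjusted p 0.0506 to 0.09), and ZNF100 without KRT20-negative replicate 1 or 2 or differentiation-medium replicate 2 or 3 (0.0668 to 0.187). These comparisons use the same hairpin libraries as those against vehicle.

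**Figure D3:**
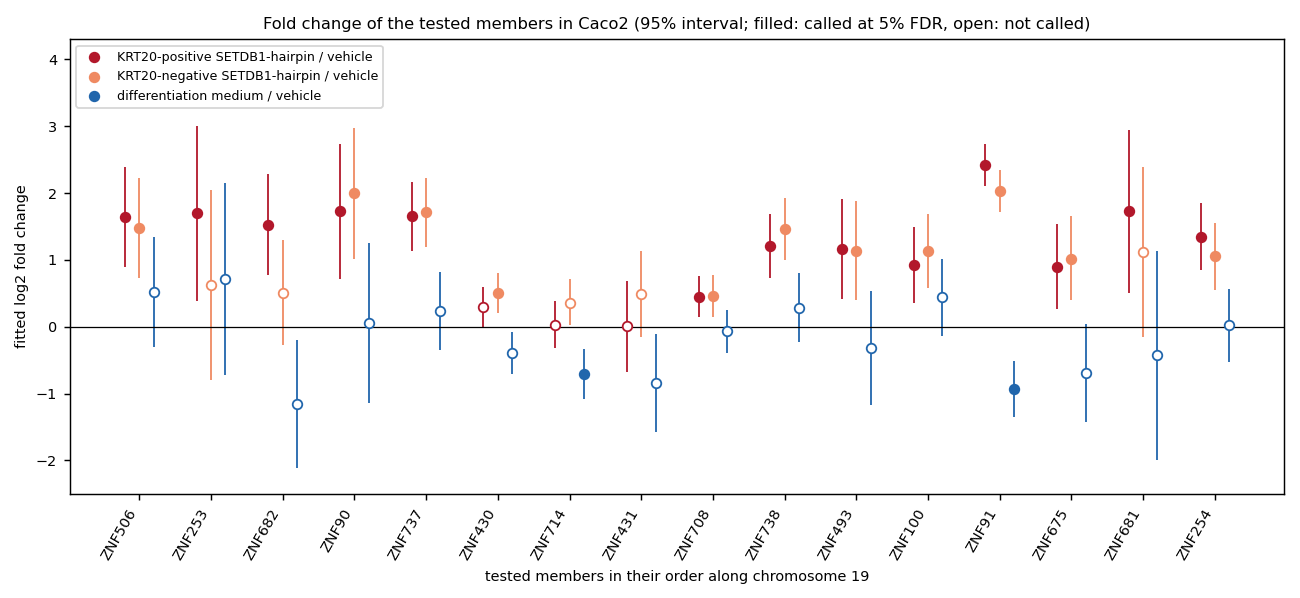
Fitted log2 fold change (vertical axis, with 95% intervals) of the 16 tested members in chromosome order for KRT20-positive, KRT20-negative and differentiation-medium cells, each against scramble vehicle cells, with filled symbols for members called at a 5% false discovery rate. In both hairpin fractions ZNF91 lies highest, at 2.42 and 2.03, while in differentiation medium ZNF91 and ZNF714 are the filled symbols, at -0.93 and -0.71.

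Among other zinc finger genes of chromosome 19, more were called higher than lower in both hairpin fractions. Of the 164 other ZNF genes of that chromosome that were tested, edgeR's test called 66 higher and 1 lower in KRT20-positive cells (median log2 fold change 0.52), and 63 higher and 1 lower in KRT20-negative cells (0.42), against vehicle. Of 195 tested ZNF genes on other chromosomes it called 35 higher and 13 lower in KRT20-positive cells (0.18), and 40 higher and 11 lower in KRT20-negative cells (0.19). Over all tested genes 19.3% were higher and 18.4% lower in KRT20-positive cells, and 18.6% and 17.6% in KRT20-negative cells. In the same order, 40.2% and 38.4% of the other chromosome 19 ZNF genes were higher. On other chromosomes the shares higher, 17.9% and 20.5%, were near the background. The 19p12 members' counts were 13 and 11 of 16, or 9 and 9 of the 12 that pass on vehicle libraries alone, and the difference between these lists was not tested.

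Among genes lying within the cluster that are not zinc finger members, 3 of 7 were tested. The importin 5 pseudogene IPO5P1 rose with the members, at 38.2 ± 3.22 CPM in KRT20-positive and 36.5 ± 0.466 CPM in KRT20-negative cells against 12.6 ± 1.62 CPM in vehicle (log2 1.59 and 1.53, edgeR adjusted p = 6.01e-10 and 1.55e-09). In differentiation medium it averaged 9.09 ± 0.404 CPM (log2 -0.48 against vehicle, edgeR adjusted p = 0.0214). That call was lost without vehicle replicate 1 or 2 or differentiation-medium replicate 1 or 3 (0.052 to 0.122). The other two tested, RPSAP58, a ribosomal protein pseudogene, and ZNF724P (log2 -0.08 in KRT20-positive and 0.51 in KRT20-negative cells, edgeR adjusted p = 0.901 and 0.316), were not called in either fraction against vehicle.

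**Figure D4:**
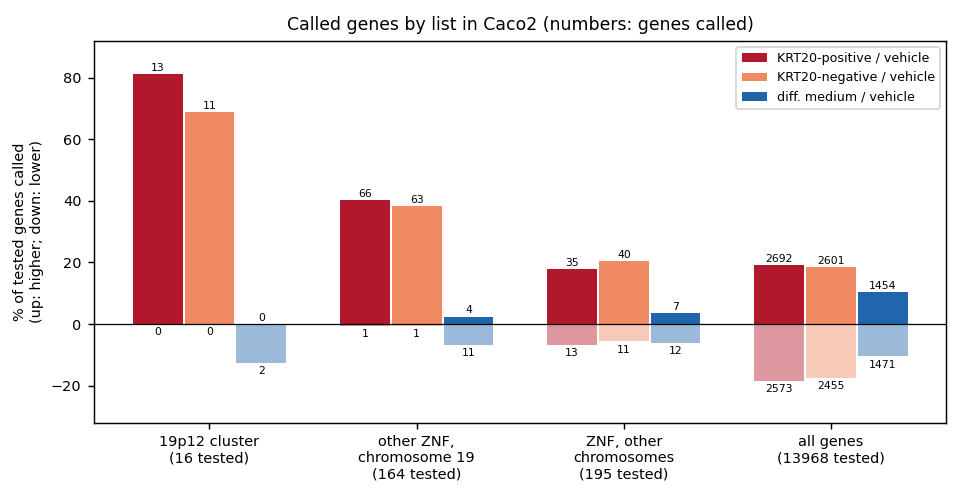
Percent of tested genes called higher (darker bars, upward) and lower (lighter bars, downward) by edgeR in KRT20-positive, KRT20-negative and differentiation-medium Caco2 cells against vehicle, for the 16 tested members of the 19p12 cluster, 164 other ZNF genes of chromosome 19, 195 ZNF genes elsewhere and all 13968 tested genes, with the number of genes printed on each bar. The cluster's bars are 13 and 11 genes higher and 0 lower in the hairpin fractions, and 0 higher and 2 lower in differentiation medium.

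Of 27 listed genes of the KRAB silencing machinery, 4 rose and 14 fell in KRT20-positive cells and 5 rose and 11 fell in KRT20-negative cells against vehicle, by edgeR's test. Over all tested genes 19.3% rose and 18.4% fell in KRT20-positive cells and 18.6% rose and 17.6% fell in KRT20-negative cells. The share of the 27 that rose (14.8% and 18.5%) is thus at or under the background, while the 14 and 11 of 27 that fell are a larger share than the background. Both of the latter counts include SETDB1, the hairpin's own target. The list was not tested as a set. ATF7IP, the partner that stabilises SETDB1, averaged 308 ± 14.3 CPM in KRT20-positive and 366 ± 27.8 CPM in KRT20-negative cells against 121 ± 3.62 CPM in vehicle (log2 1.35 and 1.60, edgeR adjusted p = 9.03e-13 and 4.83e-14). Its paralogue ATF7IP2 averaged 40.0 and 43.5 CPM against 19 CPM in vehicle (log2 1.07 and 1.19). ZNF274 averaged 13.7 ± 2.48 CPM and 9.98 ± 0.582 CPM in those fractions against 5.41 ± 0.971 CPM in vehicle (log2 1.33 and 0.87, edgeR adjusted p = 2.32e-05 and 0.00247). ATRX (log2 0.26 and 0.36), and CHD3 in KRT20-negative cells (0.31), also rose.

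The KRAB partner TRIM28 fell slightly, averaging 58.1 ± 7.33 CPM in KRT20-positive and 58.4 ± 2.28 CPM in KRT20-negative cells against 74.6 ± 6.01 CPM in vehicle (log2 -0.36 and -0.35, edgeR adjusted p = 0.00848 and 0.00985, and 0.0637 for KRT20-positive cells without their replicate 3). DNMT3B, a de novo DNA methyltransferase, fell by 0.98 and 0.90 on the log2 scale, averaging 39.7 and 42.3 CPM against 78.5 CPM in vehicle. In both fractions the heterochromatin protein 1 genes CBX1 and CBX5, MPHOSPH8 of the HUSH complex, DAXX, SUV39H2, DNMT1, UHRF1 and HDAC2 also fell. FAM208A of the HUSH complex, CHD4 and HDAC1 fell in KRT20-positive cells and did not pass in KRT20-negative cells. Between the fractions, however, edgeR called 0 of the 27, where 4.08% of all tested genes were called, with 5 of the 27 at an unadjusted p under 0.05. In differentiation medium against vehicle 0 of the 27 were called higher and 6 lower, where 10.4% of all tested genes were higher and 10.5% lower. The 6 were CBX1, MPHOSPH8, ATRX, SETDB2, DNMT3A and HDAC2. Against unsorted cells, TRIM28 was called lower in HCT116 KRT-positive (log2 -1.66, edgeR adjusted p = 0.00592) and KRT-negative cells (-1.31, 0.0362). The KRT-negative call was lost without any 1 library (0.0525 to 0.119) and in a fit of the 2 groups alone (0.0506). TRIM28 was not called in SW480 KRT-positive (-1.05, 0.202) or KRT-negative cells (-0.16, 0.98). ATF7IP and ZNF274 were called in no fraction of HCT116 or SW480 against unsorted cells.

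Markers of other cell types moved with the groups. The summed level of 10 fibroblast genes was 139 to 164 CPM in KRT20-positive libraries, 140, 154 and 827 CPM in KRT20-negative libraries, 80.0 to 93.9 CPM in differentiation medium and 54.2 to 63.8 CPM in vehicle. Outside KRT20-negative replicate 3, most of that difference lay in COL6A1, a collagen VI chain, at 95.8 to 107 CPM in KRT20-positive libraries and 93.4 and 117 CPM in the other KRT20-negative libraries, against 38.4 to 45.6 CPM in differentiation medium and 18.2 to 21.1 CPM in vehicle. The other 9 genes summed to 39.7 to 57.0 CPM in KRT20-positive libraries and 37.0, 46.7 and 600 CPM in KRT20-negative libraries, against 37.9 to 54.2 CPM in differentiation medium and 33.3 to 45.6 CPM in vehicle. KRT20-negative replicate 3 had the highest value of the 12 libraries in 10 of 10 of these genes, and without it 10 members were called against vehicle, in place of 11. Summed epithelial markers, 8 of 8 detected in each library, gave 4640 to 4680 CPM in KRT20-positive cells, 3940 to 4330 in KRT20-negative cells, 5870 to 6110 in differentiation medium and 4770 to 4870 CPM in vehicle. Of the leukocyte genes, LYZ (lysozyme) had 69.0 to 72.2 CPM in KRT20-positive, 44.7 to 52.4 in KRT20-negative, 56.1 to 61.2 in differentiation-medium and 48.3 to 54.1 CPM in vehicle libraries. CD68, a lysosomal protein of macrophages, had 20.4 to 29.1 CPM in KRT20-positive, 17.9 to 21.6 in KRT20-negative, 10.1 to 15.5 in differentiation-medium and 10.8 to 14.3 CPM in vehicle libraries. CD14 lay between 4.66 and 7.87 CPM in the 12 libraries. The defining leukocyte genes PTPRC and CD3E were at or near 0, with at most 0.685 and 0.737 CPM in a Caco2 library. The 4 endothelial genes summed to at most 7.80 CPM in a Caco2 library. The part of these in the members' differences was not tested.

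Members are less GC-rich than other genes, with a median of 40.7% over the 33 against 49.8% over the genes tested. With the slope of log2 CPM on GC content as a covariate, edgeR called 13 members higher in KRT20-positive cells and 11 in KRT20-negative cells against vehicle, the same numbers as without it, although ZNF431 (log2 0.82, adjusted p = 0.04) replaced ZNF493 (0.55, adjusted p = 0.207) in the KRT20-negative count. Members are close paralogues, and reads can be shared: of the 50-base words in the last 500 bases of annotated transcripts, 0% to 9.12% (ZNF493) occurred in another gene for tested members, and up to 17.5% (ZNF98) for untested ones. ZNF91 shared 2.67%, ZNF737 8.68%, and ZNF431 and ZNF714 8.94% and 4.62%, most often with each other, so that values of the last pair are uncertain to that extent.

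In HCT116 no change in the cluster was called, in libraries with a much wider spread. Of 8 tested members, 6 of which would have passed on unsorted libraries alone, edgeR called 0 in KRT-positive cells against unsorted cells, where 9.28% of all tested genes were called, 0 in KRT-negative against unsorted cells (5.26%) and 0 between the fractions (0.550%). In each of these, 0 members had an unadjusted p under 0.05 and DESeq2 called 0. ZNF708, the most abundant member, had 111, 46.5 and 145 CPM in KRT-positive libraries and 86.5, 127 and 117 CPM in KRT-negative libraries against 68.6, 78.1 and 83.6 CPM in unsorted libraries. The fractions' means of 101 ± 49.9 and 110 ± 21.1 CPM were above the unsorted mean of 76.8 ± 7.58 CPM, but the log2 differences of 0.39 (95% interval -0.38 to 1.16) and 0.52 (-0.25 to 1.29) did not pass.

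ZNF430 had 28.2, 33.5 and 51.2 CPM in KRT-positive libraries and 32.7, 50.6 and 18.4 CPM in KRT-negative libraries against 18.7, 17.4 and 23.2 CPM in unsorted libraries of HCT116. All 3 KRT-positive libraries were above the unsorted ones, an order seen for 15.6% of tested genes, with a log2 difference of 0.93 (SE 0.50, 95% interval -0.13 to 1.98, edgeR adjusted p = 0.293). The other tested members were ZNF714, ZNF431, ZNF738, ZNF100, ZNF675 and ZNF254, with standard errors up to 2.44 on the log2 scale. ZNF91, the most changed member of Caco2, had between 0 and 0.434 CPM in the 9 HCT116 libraries, at or near the limit that a count of 0 allows.

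In SW480, ZNF91 was the sole member that edgeR called, and only in KRT-positive against unsorted cells. It had 65.6, 136 and 107 CPM in KRT-positive libraries and 57.1, 55.1 and 34.1 CPM in KRT-negative libraries against 13.3, 43.8 and 21.3 CPM in unsorted libraries. Every KRT-positive library was above every other one, an order seen for 10.4% of tested genes against unsorted cells and 7.76% against KRT-negative cells, with means of 103 ± 35.6 CPM in KRT-positive, 48.8 ± 12.8 CPM in KRT-negative and 26.2 ± 15.8 CPM in unsorted cells (SD, n = 3 each). Against unsorted cells the log2 difference was 1.98 in KRT-positive cells (SE 0.48, edgeR adjusted p = 0.0387) and 0.90 in KRT-negative cells (SE 0.47, adjusted p = 0.465), and between the fractions 1.08 (adjusted p = 0.416). The call in KRT-positive cells was lost without KRT-positive replicate 2 (1.72, edgeR adjusted p = 0.093) or 3 (1.95, 0.0757) or unsorted replicate 1 (1.67, 0.141) or 3 (1.85, 0.147), and in a fit of the 2 groups alone (1.99, 0.0929), while DESeq2 called it (2.01, 0.00333).

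ZNF91 was the single member called among 15 tested in SW480 KRT-positive cells against unsorted cells, where 1.90% of tested genes were higher and 1.57% lower. There were 0 members called in KRT-negative against unsorted cells, where 2.12% of tested genes were called, and 0 between the fractions, where 0.445% were, with 0 and 2 members at an unadjusted p under 0.05 and 0 in DESeq2 for each. The median log2 fold change of the 15 was 0.86 in KRT-positive cells and 0.77 in KRT-negative cells, against 0.03 and 0.01 over all tested genes, with member standard errors of 0.468 to 3.16. In the same order it was 0.66 and 0.68 over other chromosome 19 ZNF genes, and 0.35 and 0.29 over ZNF genes elsewhere. The difference between these lists was not tested. Just 8 of the 15 would have passed the filter on unsorted libraries alone, so the medians of the 15 can lean upward.

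Tags of single members came and went between SW480 libraries of 1 group. ZNF430 had 54.7, 57.5 and 21.4 CPM in KRT-positive libraries and 58.7, 45.2 and 90.7 CPM in KRT-negative libraries against 38.0, 66.6 and 9.59 CPM in unsorted libraries. ZNF506 had 21.0, 15.1 and 18.1 CPM in KRT-positive libraries and 26.8, 44.2 and 1.46 CPM in KRT-negative libraries against 14.7, 30.9 and 6.21 CPM in unsorted libraries. Both overlapped between the groups. A replicate with 0 counts beside another of the same group with at least 20 counts occurred in 15 of 99 combinations of member and group in SW480, in 6 of 99 in HCT116 and in 0 of 132 in Caco2.

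ZNF675, which rose in both Caco2 fractions, had 0 counts in all 3 KRT-positive SW480 libraries, where 3 counts equal 0.299 to 0.347 CPM, and 5.08, 5.22 and 0 CPM in KRT-negative libraries, against 5.83, 9.12 and 1.52 CPM in unsorted libraries. The difference between KRT-positive and unsorted cells did not pass edgeR's test (adjusted p = 0.182) and did pass DESeq2's (adjusted p = 0.018), and 12.3% of tested genes had all 3 KRT-positive libraries below all 3 unsorted ones. IPO5P1 averaged 58.3 ± 22.6 CPM in KRT-positive and 18.8 ± 5.07 CPM in KRT-negative cells against 14.3 ± 4.23 CPM in unsorted SW480 cells (log2 2.02 for KRT-positive cells, edgeR adjusted p = 0.0617, and DESeq2 adjusted p = 0.00568). In HCT116 it averaged 19.3 ± 3.52 CPM in KRT-positive, but 2.17 ± 2.10 CPM in KRT-negative cells, against 6.77 ± 2.46 CPM in unsorted cells. By edgeR's test it was called in neither HCT116 fraction against unsorted cells.

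**Figure D5:**
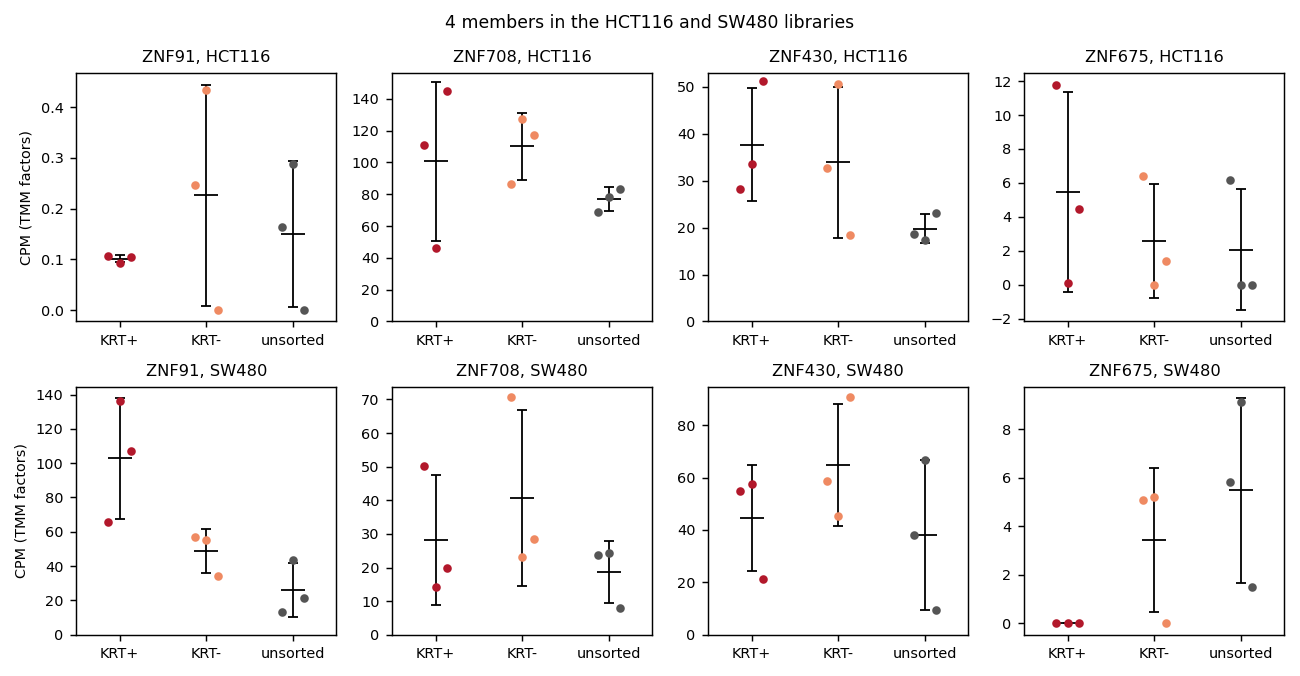
CPM of ZNF91, ZNF708, ZNF430 and ZNF675 in the HCT116 and SW480 libraries, with KRT-positive, KRT-negative and unsorted groups from left to right, 1 dot per library, the bar at the mean and error bars showing SD (n = 3). ZNF91 lies near 0 in HCT116 and between 65.6 and 136 CPM in SW480 KRT-positive libraries, and ZNF675 is at 0 in those same libraries.

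Across the lines, the set of members in use differed. Averaged over all libraries of a line, and with each line scaled separately, ZNF91 stood at 59.3 CPM in SW480, 19.8 CPM in Caco2 and 0.159 CPM in HCT116. ZNF506 followed the same order, at 19.8 CPM in SW480, 3.18 CPM in Caco2 and 0.0461 CPM in HCT116. ZNF737 and ZNF90 were highest in Caco2, at 4.98 and 2.23 CPM, against 1.03 and 0.036 CPM in SW480 and 0.0474 and 0.0297 CPM in HCT116. These averages pool hairpin and control cells, and in controls alone ZNF737 was not highest in Caco2, at 2.32 ± 0.125 CPM in vehicle cells and 2.70 ± 3.22 CPM in unsorted SW480 cells (SD, n = 3 each). ZNF708 was highest in HCT116, at 95.9 CPM, against 33.4 CPM in Caco2 and 29.2 CPM in SW480, while ZNF430 (49.2, 18.2 and 30.4 CPM in SW480, Caco2 and HCT116) and ZNF714 (27.5, 13.6 and 16.0 CPM) were present in all 3.

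The summed level of the cluster was 186 ± 63.1 CPM in KRT-positive and 181 ± 17.8 CPM in KRT-negative cells against 138 ± 2.37 CPM in unsorted cells of HCT116. In SW480 it was 294 ± 52.7 CPM in KRT-positive and 267 ± 23.0 CPM in KRT-negative cells against 160 ± 65.4 CPM in unsorted cells (SD, n = 3 each). ZNF91 supplied 23.2% to 43.4% of the cluster's tags in SW480 KRT-positive libraries, 14.1% to 20.1% in KRT-negative libraries and 8.62% to 21.7% in unsorted libraries, and at most 0.222% in a library of HCT116. None of the 8 members tested in HCT116 was called there. ZNF91, ZNF737, ZNF90, ZNF506, ZNF682, ZNF493, ZNF253 and ZNF681, each called in a Caco2 hairpin fraction, had too few counts to be tested in HCT116. Whether the responses differ between the lines was not tested.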

How the data were processed

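QuantSeq 3′ tag counts were analysed for 30 libraries of established cell lines. The deposited files hold raw counts per gene symbol, 1 file per library; per the submitters' processing notes, reads were handled with Bowtie2 and edgeR on hg19, with versions not given in the sources used here. Lines sharing a symbol were summed (1561 lines of 286 symbols), leaving 24462 symbols. Each line was fitted separately over all its groups in edgeR 4.0.16 (limma 3.58.1, R 4.3.3): filterByExpr with a minimum count of 10, TMM scaling, robust quasi-likelihood F tests, and Benjamini-Hochberg adjustment over all 13968 (Caco2), 13279 (HCT116) or 13252 (SW480) tested genes, called at 5%. CPM values use the TMM-scaled totals of their line. SE was taken as the absolute log2 value over the root of F, and 95% intervals use the fit's degrees of freedom. Procedures were tested on simulated data.

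The members and lists were chosen with earlier results of these data known. In each comparison up to 8 called members per direction, by absolute log2 fold change, are named, uncalled ones where 10 or fewer, and in Caco2 always ZNF91, ZNF93, ZNF43, ZNF85 and ZNF208. Of the silencing genes, SETDB1, TRIM28, ATF7IP and ZNF274 are named for each hairpin fraction against vehicle or unsorted cells, and others where called against vehicle in Caco2. Alternatives were DESeq2 1.42.0, relative log expression and library-total scaling, no count filter, a fit of the 2 groups alone, a replicate block, a GC covariate and each library left out. Pairing of replicate numbers was judged from the data: same-numbered deviations correlated above 0.1 in all 3 pairs for differentiation medium with vehicle (0.144 to 0.330), KRT20-negative cells with vehicle (0.129 to 0.259), KRT20-negative cells with differentiation medium (0.144 to 0.238) and KRT20-positive with KRT20-negative cells (0.141 to 0.238), and not for KRT20-positive cells with either scramble group, nor in HCT116 or SW480. Gene positions come from an annotation of GRCh38, not of the files' hg19, and serve for order only; promoter sequences are from RefSeq. The sum over the leukocyte marker list is not reported here, and values of single genes of it are.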

Additional observations from a re-analysis of the deposited data

Results flagged for a closer look

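ZNF675 lay on opposite sides of the control in KRT-positive cells of Caco2 and SW480. All 3 Caco2 KRT20-positive libraries lay above all 3 vehicle libraries, with a mean difference of 2.22 CPM, while all 3 SW480 KRT-positive libraries had 0 counts and lay below all 3 unsorted libraries, with a mean difference of -5.49 CPM. In Caco2 edgeR's call was lost without KRT20-positive replicate 3 (adjusted p = 0.0976) or vehicle replicate 2 (0.12), and in SW480 the difference did not pass edgeR's test (adjusted p = 0.182). The difference between the lines was not tested, and the controls differ, being scramble vehicle cells in Caco2 and unsorted cells in SW480.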

How the results depend on the processing

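The count of called members stayed within 1.5 times the reported one in 149 of 156 combinations of 12 comparisons and an alternative, and no direction reversed. The 149 include comparisons with 0 members called, among them all those of HCT116, where 0 against 0 counts as unchanged. Leaving out each library in turn gave 0 to 1 members between the Caco2 fractions and 0 to 1 in SW480 KRT-positive against unsorted cells, where a fit of the 2 groups alone gave 0 and DESeq2 gave 2. Other Caco2 counts ranged over 9 to 11 in each hairpin fraction against vehicle, 12 to 14 and 12 to 15 for KRT20-positive and KRT20-negative cells against differentiation medium, and 2 to 3 for that medium against vehicle. Of 55 values for single members under 712 alternatives, 664 kept their side of the threshold, 47 fell below it and 1 passed it. The 55 were values already called, with ZNF91 between the Caco2 fractions added, so almost none could pass upward. Calls gained by other members were not counted there. With the replicate block, 3 in place of 2 members were lower in differentiation medium and 14 in place of 13 higher in KRT20-positive cells against it (ZNF431, edgeR adjusted p = 0.0437), and it changed no other count. Depth limits the 17 members untested in Caco2, and replicate spread limits HCT116 and SW480, where the lack of a call does not show that members were equal.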
